A study of Homo sapiens with 9 samples.

Results

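Wnt signalling switches on genes that feed back on the pathway, many of them as brakes, and the 10 genes described here are 9 such feedback targets (AXIN2, LEF1, TCF7, NKD1, RNF43, ZNRF3, SP5, LGR4 and DKK1) together with TCIM, a small protein that modulates the pathway. They were matched by symbol to 10 of the 60683 gene IDs counted in each library. TCIM was chosen by its measured counts in these libraries, which were far lower in both reporter clones than in parental cells, so its values are given as a description with no test. The other 9 genes are named for their role in the pathway.

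The data are 9 RNA-seq libraries of HEK293T, an established human embryonic kidney cell line, with 3 libraries in each of 3 groups. The parental line was left without a reporter. Clone 15 and clone 37 each grew from a single sorted cell after piggyBac transposition of a pair of reporters, a NanoLuc construct with 60 CAG repeats and a firefly luciferase construct with 0 repeats, both with an ATG start and a Myc tag. Clone 15 has a low and clone 37 a high level of both reporters, and no group was given any other treatment in the labels. Each reporter level is represented by 1 clone, so reporter level, integration sites and clonal history cannot be told apart. Clone 15 was sequenced with reads of 100 bp and the other groups with reads of 75 bp, so read length cannot be told apart from clone 15 either. The labels do not say whether the replicates were separate cultures, and p-values then measure only the spread between these libraries.

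In canonical Wnt signalling, ligands bind Frizzled and LRP receptors and free β-catenin from a destruction complex built on AXIN and APC, after which β-catenin activates genes through TCF/LEF factors in the nucleus. Many of those genes encode inhibitors of the same pathway, and their transcripts are widely used as a readout of it. HEK293T cells have an intact pathway and are commonly used for β-catenin reporter assays.

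Gene counts summed to 10334090 to 38093340 per library, and clone 15 was the deepest group. All 11 HEK293T marker genes reached a mean of 1 CPM (counts scaled to a common total of gene counts per library) in every group, and their sum was 1456 to 1751 CPM in parental, 4254 to 4412 CPM in clone 15 and 967.3 to 1050 CPM in clone 37 libraries. The sum moved with 2 neurofilament genes, NEFM (558.9, 2728 and 137.2 CPM in parental, clone 15 and clone 37) and NEFL (235.2, 716.1 and 60.7 CPM), while VIM was at 544.6, 546.7 and 542.7 CPM. The part of that difference in the results was not tested. The blood, endothelial and hepatocyte markers each summed to at most 2.01 CPM in any library. The 5 fibroblast markers summed to 38.3 to 41.8 CPM in parental, 58.5 to 173.3 CPM in clone 15 and 21.1 to 21.9 CPM in clone 37 libraries. COL1A2 of that list had 0 counts in all parental and clone 37 libraries but 5.59, 12.2 and 56.8 CPM in clone 15 replicates 1, 2 and 3. COL1A1 was also higher in clone 15 (72.7 ± 31.5 CPM, SD, n = 3) than in parental (34.4 ± 1.365 CPM). DCN was low, at most 1.23 CPM in any library. Its mean was higher in clone 15 (0.504 ± 0.63 CPM, 32 counts) than in parental (0.0788 ± 0.0729 CPM, 3 counts), with overlap, and clone 37 held 1 count. LUM was lower in clone 15 than in parental (0.871 ± 0.534 against 2.14 ± 0.365 CPM), and PDGFRA overlapped (4.28 ± 1.198 against 3.46 ± 0.559 CPM). The means of COL1A2, COL1A1, DCN and PDGFRA were thus higher in clone 15 than in parental, and that of LUM was lower. The part of COL1A2 in the clone 15 results below was not tested. The 4 feedback targets called in clone 15 were the same when replicate 3, the library with most COL1A2, was left out. Replicates 1 and 2 still held COL1A2, so this cannot show its part in the calls. Parental replicate 2 and clone 15 replicate 2 stood apart from the other replicates of their groups: the chi-square per degree of freedom between libraries was 11.5 and 11.6 for pairs with parental replicate 2 against 1.99 for the remaining parental pair, and 9.97 and 8.20 against 4.53 in clone 15.

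TCF/LEF factors bind DNA with a CTTTG core, and of the promoters that could be searched, those with most matches to such letters are shown. Such words were searched on both strands of RefSeq promoters (GRCh38.p14), each from 250 bases before to 50 bases after a start. CTTTGAT was held by 2.62% of the 35116 promoters in the table, CTTTGAA by 4.43%, CTTTGTT by 5.20% and CTTTGTA by 2.77%. Of the 10 genes, 6 matched this table, with 8 promoters. TCIM, AXIN2, NKD1 and ZNRF3 had no promoter there and were not searched. Among all promoters of the table, 13.8% held at least 1 match to any of the 4 words, 1.58% held at least 2 and 0.179% at least 3. SP5 held 3 matches, at positions -148, -109 and -84 from its start, and DKK1 held 2, at -95 and -76. Of the promoters of TCF7, 1 held a match, at -50, and those of LEF1, RNF43 and LGR4 held none within this window. The 250 bases before the start follow, from chr2:170715087-170715336 (plus strand) for SP5 and chr10:52314031-52314280 (plus strand) for DKK1. Capitals mark the matched words as they read on the plus strand, so TTCAAAG is CTTTGAA on the minus strand.
SP5: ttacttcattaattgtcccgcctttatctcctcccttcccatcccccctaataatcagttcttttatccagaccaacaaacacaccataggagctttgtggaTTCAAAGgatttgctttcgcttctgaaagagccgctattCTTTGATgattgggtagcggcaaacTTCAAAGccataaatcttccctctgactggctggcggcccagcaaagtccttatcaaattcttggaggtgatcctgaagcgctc
DKK1: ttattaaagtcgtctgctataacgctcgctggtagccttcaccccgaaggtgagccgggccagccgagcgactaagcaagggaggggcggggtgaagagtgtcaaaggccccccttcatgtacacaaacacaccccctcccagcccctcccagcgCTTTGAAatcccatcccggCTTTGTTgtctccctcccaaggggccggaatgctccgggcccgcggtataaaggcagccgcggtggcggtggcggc
A match is a run of letters and not a measured binding site, and the pair of promoters is taken up again beside the levels of SP5 and DKK1.

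The fitted change from parental was under 2-fold in either clone for each of the 8 tested feedback targets, although the 95% intervals of RNF43 and DKK1 reached past 2-fold. In clone 37, RNF43 and ZNRF3 fell and no target rose. In clone 15, TCF7 rose and LEF1, NKD1 and ZNRF3 fell. Of the 8, ZNRF3 was called in both clones against parental, and the others in at most 1 of them. AXIN2, the target most often used as a pathway readout, and LGR4 were called in none of the 3 comparisons. Of all tested genes, 54.0% were called in clone 37 and 51.4% in clone 15 against parental, and 57.7% between the clones. The shares of all genes called in both clones, or in no comparison, were not computed. These patterns of calls therefore set no target apart from other genes.

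These calls come from edgeR's quasi-likelihood test on all genes, with Benjamini-Hochberg (BH) adjustment over all genes and a threshold of 0.05. Of the 10 genes, 9 passed the filter on low counts in each comparison. SP5 did not pass it, and TCIM is not counted. In clone 37 against parental, 2 of the 8 tested targets were called, both lower, beside 54.0% of all 16501 genes tested (26.7% higher and 27.3% lower). In clone 15 against parental, 4 of 8 were called, 1 higher and 3 lower, beside 51.4% of 17703 genes (25.1% higher and 26.2% lower). In clone 37 against clone 15, 5 of 8 were called, 2 higher and 3 lower, beside 57.7% of 17712 genes (28.7% higher and the remainder lower). The median log2 fold change of the 8 targets was -0.02, -0.10 and -0.11 in these comparisons, and that of all tested genes was 0.02, 0.02 and -0.00. The comparisons share their libraries pairwise and are not independent of each other.

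**Figure D1:**
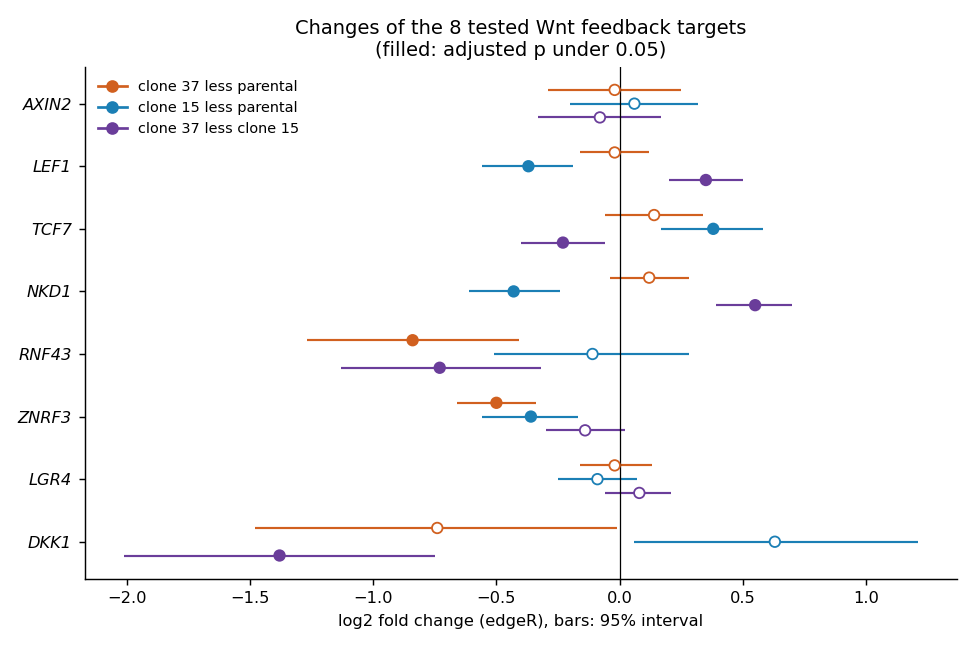
Log2 fold change (x axis) of the 8 tested feedback targets (y axis) in clone 37 less parental, clone 15 less parental and clone 37 less clone 15, with bars for the 95% interval and filled points for an adjusted p under 0.05. ZNRF3 has filled points left of 0 for both clones against parental, while AXIN2 and LGR4 have open points near 0 throughout.

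TCIM (ENSG00000176907; chromosome 8, 40153455 to 40155308, plus strand, GENCODE 29 on GRCh38) encodes a protein known to bind Chibby, the product of CBY1, and to relieve its repression of β-catenin. The parental libraries held 16.9, 15.8 and 11.9 CPM of TCIM, from 183, 219 and 156 counts. The clone 37 libraries held 1.55, 0.677 and 1.30 CPM, from 17, 7 and 16 counts. The clone 15 libraries held 0.0788, 0.0406 and 0.0536 CPM, from 3, 1 and 1 counts. The 3 groups did not overlap, and clone 15, the clone with low reporter level, was the lowest. Pooled over its libraries, parental CPM was 12.4 times that of clone 37 (95% exact interval 9.01 to 17.6, counting error only) and 240 times that of clone 15 (102 to 743). Clone 37 was 19.4 times clone 15 (7.64 to 62.8). In such bulk libraries, fewer cells with the transcript and less transcript per cell cannot be told apart.

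**Figure D2:**
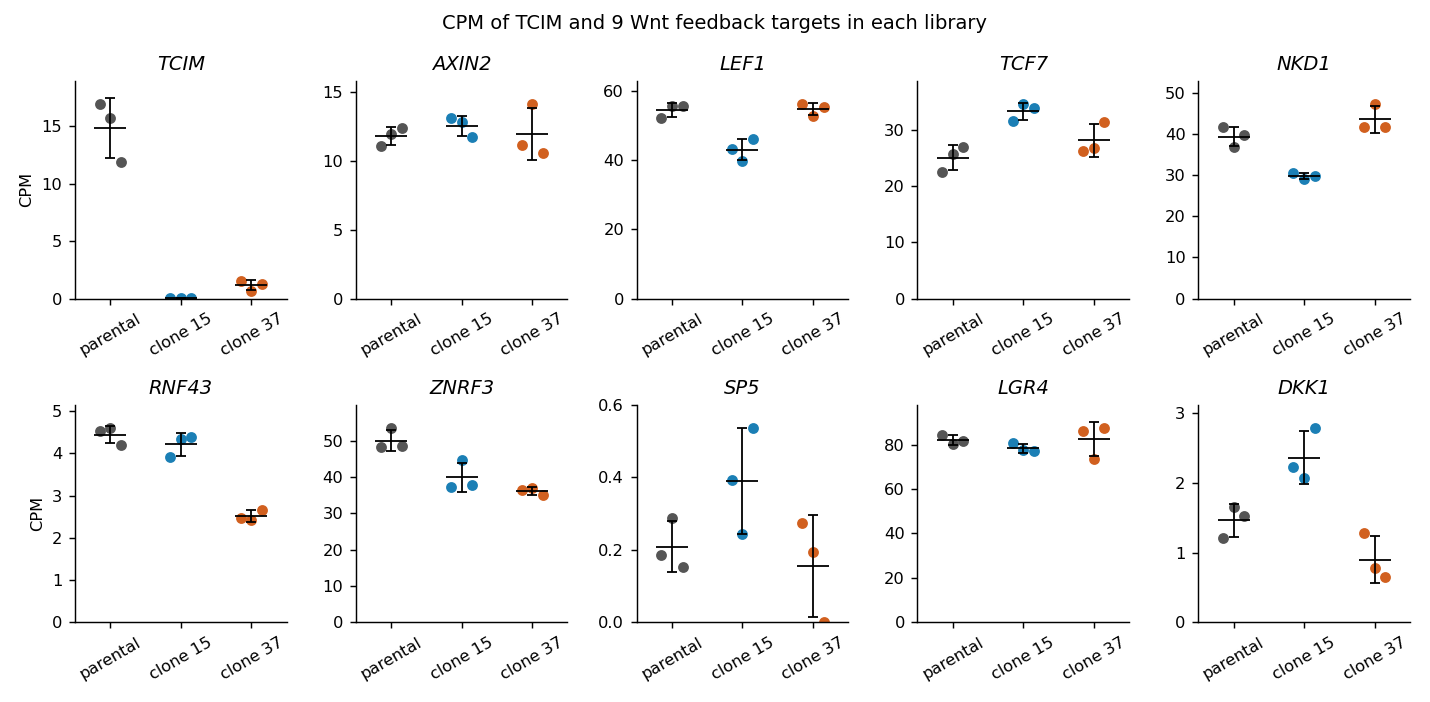
CPM (y axis, linear and from 0) of each of the 10 genes in the 3 parental, 3 clone 15 and 3 clone 37 libraries, with points for libraries and bars for the mean and SD. TCIM, chosen for its low values in the clones, sits at 11.9 to 16.9 CPM in parental and at most 1.55 CPM in any clone library. Its wider gap than in the other panels follows from that choice.

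The values of the genes around TCIM are given to describe its surroundings. Since TCIM was chosen for its low values in the clones, its place below its neighbours follows from that choice. Among the 20 tested genes nearest to TCIM on chromosome 8, 10 on either side, log2 fold changes in clone 37 ran from -1.10 to 2.51 with a median of 0.19, against a fitted -3.66 for TCIM. In clone 15 they ran from -0.87 to 4.53 with a median of 0.04, against -7.81. The next tested gene downstream in clone 37 was SFRP1, which encodes a secreted Wnt antagonist and is named here after its values were seen. SFRP1 was at 26.7 ± 2.83 CPM (SD, n = 3) in parental, 30.8 ± 1.83 CPM in clone 15 and 154.5 ± 4.68 CPM in clone 37. It rose 5.69-fold in clone 37 (log2 2.51, SE 0.08, edgeR adjusted p = 6.89e-14) and was not called in clone 15 (0.17, 95% interval -0.04 to 0.39, BH-adjusted p = 0.164). The 4.53 in clone 15 was the fitted value of ZMAT4, also named after its values were seen. It had 0, 0 and 1 counts in parental and 24, 20 and 17 counts in clone 15 libraries and passed the filter in that comparison alone, so the fitted value depends on a parental level near 0 and gives no reliable fold.

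**Figure D3:**
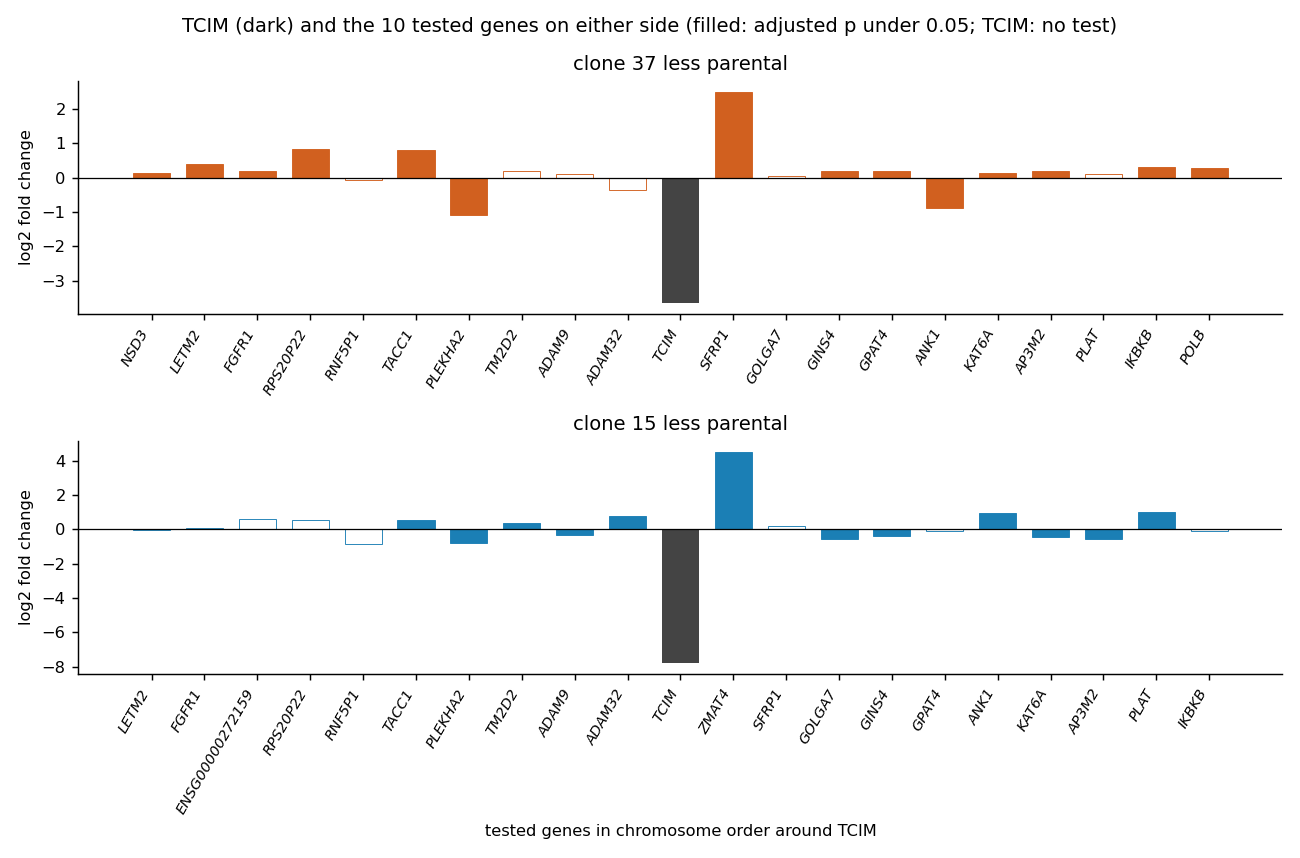
Log2 fold change (y axis) of TCIM (dark bar, no test) and of the 10 tested genes on either side of it in chromosome order (x axis), for clone 37 and clone 15 less parental, with filled bars for an adjusted p under 0.05. TCIM, chosen for its low values, is at -3.66 and -7.81, and SFRP1 is the tallest in clone 37 at 2.51.

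The genes nearest to TCIM in their levels were ranked by the root mean square difference of their centred log2(CPM + 0.1) over the 9 libraries, among 15982 genes. The closest was HAS2, a hyaluronan synthase, with a difference of 0.943 and mean levels of 61.1 CPM in parental, 2.20 CPM in clone 15 and 4.55 CPM in clone 37. ENSG00000260659, an antisense transcript, and TRIM17, a ubiquitin ligase, followed with differences of 0.955 and 0.990. MAGEA3, a cancer-testis antigen, and LCP1, an actin-bundling protein, came next at 1.00 and 1.08. LCP1 kept 30.6 CPM in clone 37 against 66.0 CPM in parental and 1.14 CPM in clone 15. Since TCIM was picked for its pattern, the list only describes which genes lay nearest to it. With differences of 0.943 to 1.08 on the log2 scale, none followed it closely.

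CBY1, the partner of TCIM, was lower than parental in both clones. It was at 34.3 ± 1.94 CPM (SD, n = 3) in parental, 26.4 ± 2.29 CPM in clone 37 and 25.99 ± 0.761 CPM in clone 15. The log2 change was -0.40 (SE 0.09, edgeR adjusted p = 0.000722) in clone 37 and -0.43 (SE 0.09, BH-adjusted p = 0.000376) in clone 15. CTNNB1, which encodes β-catenin, was at 572.9 ± 31.9 CPM in parental, 460.0 ± 24.2 CPM in clone 37 and 499.4 ± 2.15 CPM in clone 15. It fell in clone 37 (-0.34, SE 0.07, BH-adjusted p = 0.000469). Its call in clone 15 (-0.23, SE 0.09, BH-adjusted p = 0.034) was lost when any of the 3 clone 15 libraries was left out (-0.21 without replicate 1, -0.20 without replicate 2 and -0.21 without replicate 3) and with a replicate block (-0.23, BH-adjusted p = 0.0728).

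AXIN2 (chromosome 17, 65528563 to 65561647, minus strand) encodes a scaffold of the destruction complex and is the classical negative feedback target. The parental libraries held 11.1, 11.9 and 12.4 CPM, clone 15 held 13.1, 12.9 and 11.7 CPM, and clone 37 held 11.1, 14.1 and 10.6 CPM. All 3 groups overlapped. The log2 change was -0.02 in clone 37 (95% interval -0.29 to 0.25, edgeR adjusted p = 0.918) and 0.06 in clone 15 (-0.20 to 0.32, BH-adjusted p = 0.716), so neither interval reached a 2-fold change. Around AXIN2, the 20 tested genes had medians of 0.06 in clone 37 and 0.09 in clone 15. The flat profile of AXIN2 was closest to those of CNKSR3, LINC00630, RGMB, CGN and EP400, with differences of 0.075 to 0.0897 by the measure used for TCIM. Of the 75-base words in its longest transcript, 29.7% also occur in AC004805.1, an overlapping gene model on the same strand, and reads there count for neither gene, so the AXIN2 level may be understated.

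NKD1 (chromosome 16, 50548330 to 50649249, plus strand) encodes Naked cuticle 1, which binds Dishevelled and dampens the signal. It was at 41.7, 36.9 and 39.8 CPM in parental, 30.7, 29.03 and 29.9 CPM in clone 15 and 41.8, 47.3 and 41.8 CPM in clone 37. The clone 15 libraries lay below all others, and clone 37 lay just above parental. NKD1 fell 1.35-fold in clone 15 (log2 -0.43, SE 0.09, edgeR adjusted p = 0.000293) and was not called in clone 37 (0.12, 95% interval -0.04 to 0.28, BH-adjusted p = 0.19). Between the clones it was 1.46-fold higher in clone 37 (log2 0.55, SE 0.08, BH-adjusted p = 5.18e-07). The 20 tested genes around NKD1 had a median log2 change of -0.35 in clone 15, with 17 of 20 below 0. Of these, 11 were called lower, beside 26.2% of all genes tested. Between the clones their median was 0.58. Both medians lay close to the values of NKD1 itself, and a part of the region in them was not tested.

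Its paralogue NKD2 moved in opposite directions in the clones. The mean was 15.3 ± 1.60 CPM (SD, n = 3) in parental, 10.5 ± 1.44 CPM in clone 15 and 22.6 ± 1.18 CPM in clone 37. It fell in clone 15 (log2 -0.58, SE 0.13, edgeR adjusted p = 0.000756) and rose in clone 37 (0.55, SE 0.10, BH-adjusted p = 0.000201).

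RNF43 (chromosome 17, 58352500 to 58417595, minus strand) encodes a membrane ubiquitin ligase that removes Frizzled receptors from the cell surface. It was at 4.53, 4.60 and 4.21 CPM in parental, 3.91, 4.34 and 4.40 CPM in clone 15 and 2.47, 2.42 and 2.67 CPM in clone 37. Clone 37 lay below both other groups, which overlapped. RNF43 fell 1.79-fold in clone 37 (log2 -0.84, SE 0.20, edgeR adjusted p = 0.00204) and was not called in clone 15 (-0.11, 95% interval -0.51 to 0.28, BH-adjusted p = 0.638). It was 1.66-fold lower in clone 37 than in clone 15 (log2 -0.73, SE 0.20, BH-adjusted p = 0.00248). The 20 tested genes around it had a median of 0.30 in clone 37, with 15 above 0 and 5 below 0, of which 2 were called lower, and the lowest was at -1.30. AC004687.2, a gene model on the same strand, shares 76.2% of the 75-base words of the longest RNF43 transcript and itself had 10, 25 and 10 counts summed over the parental, clone 15 and clone 37 libraries, so the RNF43 counts rest on the remainder of the gene.

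ZNRF3 (chromosome 22, 28883592 to 29057487, plus strand) encodes the related ligase with the same role at the membrane. It was at 48.2, 53.4 and 48.4 CPM in parental, 37.2, 44.5 and 37.9 CPM in clone 15 and 36.4, 36.9 and 34.9 CPM in clone 37. Both clones lay below parental in every library. ZNRF3 fell 1.41-fold in clone 37 (log2 -0.50, SE 0.07, edgeR adjusted p = 2.04e-05) and 1.29-fold in clone 15 (-0.36, SE 0.09, BH-adjusted p = 0.00235). The difference between the clones was not called (-0.14, 95% interval -0.30 to 0.02, BH-adjusted p = 0.127), but was called when clone 15 replicate 1 was left out (-0.20, BH-adjusted p = 0.0456). The median over the 20 tested genes around ZNRF3 was -0.31 in clone 37, with 17 of 20 below 0, and -0.23 in clone 15, with 13 of 20 below 0.

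LGR4 (chromosome 11, 27365961 to 27472775, minus strand) encodes an R-spondin receptor, through which R-spondins clear RNF43 and ZNRF3 and so strengthen the signal. It was at 84.3, 80.1 and 81.6 CPM in parental, 80.7, 77.7 and 76.9 CPM in clone 15 and 86.0, 73.6 and 87.4 CPM in clone 37. The log2 change was -0.02 in clone 37 (95% interval -0.16 to 0.13, edgeR adjusted p = 0.867), -0.09 in clone 15 (-0.25 to 0.07, BH-adjusted p = 0.332) and 0.08 between the clones (-0.06 to 0.21, BH-adjusted p = 0.339). All 3 groups overlapped, and each of these intervals stayed within 0.25 of 0. LGR5, the related stem cell receptor and itself a Wnt target in gut, moved much further. It was at 16.8, 16.6 and 16.5 CPM in parental, 11.3, 10.0 and 11.6 CPM in clone 15 and 3.93, 2.71 and 4.45 CPM in clone 37. LGR5 fell by 2.18 on the log2 scale in clone 37 (SE 0.15, BH-adjusted p = 3.09e-09) and by 0.63 in clone 15 (SE 0.12, BH-adjusted p = 0.000125), and the clones did not overlap.

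DKK1 (chromosome 10, 52314296 to 52318042, plus strand) encodes a secreted inhibitor that blocks the LRP5 and LRP6 co-receptors, and its promoter is the second one printed above. It was at 1.203, 1.65 and 1.53 CPM in parental (13, 23 and 20 counts), 2.23, 2.07 and 2.79 CPM in clone 15 (85, 51 and 52 counts) and 1.28, 0.774 and 0.648 CPM in clone 37 (14, 8 and 8 counts). Clone 15 lay above both other groups, and clone 37 overlapped parental. Neither clone was called against parental: the log2 change was 0.63 in clone 15 (SE 0.28, 95% interval 0.06 to 1.21, edgeR adjusted p = 0.0599) and -0.74 in clone 37 (SE 0.35, -1.48 to -0.01, BH-adjusted p = 0.0803). With 1 library left out, the clone 15 value ran from 0.50 (without parental replicate 1, BH-adjusted p = 0.228) to 0.76 (without parental replicate 2, called at 0.0479). The clone 37 value ran from -0.57 (without clone 37 replicate 3, BH-adjusted p = 0.26) to -1.08 (without clone 37 replicate 1, called at 0.0423). DESeq2 called neither (adjusted p = 0.122 in clone 15 and 0.218 in clone 37). Between the clones DKK1 was 2.60-fold lower in clone 37 (log2 -1.38, SE 0.31, BH-adjusted p = 0.000347), the largest difference between the clones among the 8 tested targets. Leaving out clone 15 replicate 3, the library with most COL1A2, gave -1.27 (adjusted p = 0.00132). DKK1 was 2.23, 2.07 and 2.79 CPM in the libraries where COL1A2 was 5.59, 12.2 and 56.8 CPM.

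LEF1 (chromosome 4, 108047545 to 108168956, minus strand) encodes a nuclear partner of β-catenin that is itself a target gene. It was at 52.1, 55.7 and 55.7 CPM in parental, 43.3, 39.9 and 46.0 CPM in clone 15 and 56.2, 52.8 and 55.3 CPM in clone 37. The clone 15 libraries lay below all others, and the other groups overlapped. LEF1 fell 1.29-fold in clone 15 (log2 -0.37, SE 0.09, edgeR adjusted p = 0.00115), and in clone 37 its change was -0.02 (95% interval -0.16 to 0.12, BH-adjusted p = 0.827). It was 1.28-fold higher in clone 37 than in clone 15 (log2 0.35, SE 0.07, BH-adjusted p = 0.000137). The 20 tested genes around it had a median of -0.24 in clone 15, with 16 of 20 below 0.

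TCF7 (chromosome 5, 134114711 to 134151865, plus strand) encodes TCF1, a factor of the same family, and moved the other way. It was at 22.6, 25.8 and 26.9 CPM in parental, 31.7, 34.6 and 33.9 CPM in clone 15 and 26.2, 26.8 and 31.5 CPM in clone 37. Clone 15 lay above every other library, the closest being clone 37 replicate 3. TCF7 rose 1.30-fold in clone 15 (log2 0.38, SE 0.10, edgeR adjusted p = 0.00248) and was not called in clone 37 (0.14, 95% interval -0.06 to 0.34, BH-adjusted p = 0.232). The difference between the clones was small (-0.23, SE 0.08, BH-adjusted p = 0.0175) and its call was lost without clone 37 replicate 1 (-0.18, BH-adjusted p = 0.138) or replicate 2 (-0.19, BH-adjusted p = 0.115). LEF1 and TCF7 thus changed in opposite directions in clone 15.

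The remaining factors of the family were measured too. TCF7L1, which mostly represses targets, was at 18.02 ± 1.96 CPM (SD, n = 3) in parental, 10.8 ± 0.577 CPM in clone 15 and 8.83 ± 0.618 CPM in clone 37. It fell in both, by 0.77 on the log2 scale in clone 15 (SE 0.12, edgeR adjusted p = 1.19e-05) and by 1.05 in clone 37 (SE 0.12, BH-adjusted p = 1.04e-06). TCF7L2, the main TCF of gut epithelium, rose in clone 15 (0.27, SE 0.08, BH-adjusted p = 0.00933) from 46.6 ± 3.91 to 57.4 ± 0.874 CPM, a call lost without parental replicate 1 (0.24). In clone 37 it was at 42.0 ± 2.62 CPM and was not called (-0.18, BH-adjusted p = 0.0552).

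SP5 (chromosome 2, 170715351 to 170718078, plus strand) encodes a zinc finger repressor that is a strong direct target in many cells, and its promoter held the most matches above. It was nearly absent from these libraries. Parental libraries held 2, 4 and 2 counts, clone 15 held 15, 6 and 10 counts and clone 37 held 3, 2 and 0 counts. These were 0.185, 0.288 and 0.153 CPM for parental, 0.394, 0.244 and 0.536 CPM for clone 15 and 0.274, 0.194 and 0 CPM for clone 37. The groups overlapped except that clone 15 replicates 1 and 3 lay above all others. The 0 allows up to 3 counts. Fitted without the filter on low counts, the log2 change was -0.51 (SE 0.90, edgeR adjusted p = 0.725) in clone 37 and 0.81 (SE 0.71, BH-adjusted p = 0.448) in clone 15, so a difference was not detectable at this depth.

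Levels of different genes were compared per kilobase of the longest transcript. In parental cells LGR4 (15.8 ± 0.411 CPM per kb, SD, n = 3) and LEF1 (15.7 ± 0.600 CPM per kb) were the highest and overlapped, but over the merged exons of all transcripts LEF1 was at 10.2 CPM per kb, below LGR4 at 12.9 CPM per kb without overlap. TCIM (8.02 ± 1.41 CPM per kb) and ZNRF3 (7.30 ± 0.435 CPM per kb) came next and were not separated from each other. TCF7 (4.70 CPM per kb), AXIN2 (2.77 CPM per kb) and NKD1 (2.31 CPM per kb) followed without overlap, then DKK1 (0.817 CPM per kb) and SP5 (0.103 CPM per kb). Over merged exons TCF7 was at 2.49 CPM per kb, 2.24 to 2.68 in single libraries, and overlapped AXIN2 and NKD1. RNF43 is given no place, because its value of 0.798 CPM per kb divides its counts by a length that is mostly shared with AC004687.2. The shared part of AXIN2 lowers its value too, so its place beside NKD1 and TCF7 is uncertain. TCIM was at 0.634 CPM per kb in clone 37 and 0.0311 CPM per kb in clone 15.

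The rest of the pathway was counted in 97 genes in 7 lists by role. In clone 37, 74 of them were tested and 49 were called, 21 higher and 28 lower, beside 54.0% of all genes, with a median log2 change of -0.15. In clone 15, 77 were tested and 43 called, 15 higher and 28 lower, beside 51.4% of all genes, with a median of -0.13. The median of all tested genes was 0.02 in both comparisons. The counts for single lists below stand against these same shares of all genes, and several lie close to them.

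Among ligands and their secretion, 3 rose and 3 fell of 12 tested in clone 37, and 2 rose and 6 fell of 13 in clone 15. WNT5A, a mostly non-canonical ligand, went from 80.3 ± 2.85 CPM (SD, n = 3) in parental to 35.3 ± 1.18 CPM in clone 37 (log2 -1.21, SE 0.07, edgeR adjusted p = 1.56e-10) and 58.7 ± 1.96 CPM in clone 15 (-0.48, SE 0.08, BH-adjusted p = 2e-05). WNT9A rose in clone 15 (1.10, SE 0.24, BH-adjusted p = 0.000375). Its call in clone 37 (0.72, BH-adjusted p = 0.0232) was lost when clone 37 replicate 1 (0.71) or 2 (0.61) or parental replicate 1 (0.51) was left out.

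Of the 15 receptors and co-receptors, all tested, 6 rose and 5 fell in clone 37 and 1 rose and 5 fell in clone 15. ROR2, a receptor for WNT5A, fell together with its ligand, from 23.2 ± 0.542 CPM in parental to 8.98 ± 0.0691 CPM in clone 37 (log2 -1.39, SE 0.10, edgeR adjusted p = 5.03e-09) and 15.7 ± 2.41 CPM in clone 15 (-0.59, SE 0.12, BH-adjusted p = 0.000141). FZD8, a Frizzled receptor, rose in clone 15 (0.88, SE 0.11, BH-adjusted p = 2.88e-07) and in clone 37 (0.51, SE 0.09, BH-adjusted p = 0.000153). Of the co-receptors that DKK1 blocks, LRP5 was called in neither clone (0.08 in clone 37 and 0.02 in clone 15), and LRP6 rose by 0.18 in clone 37 (SE 0.05, BH-adjusted p = 0.00796), a call lost without clone 37 replicate 3 (0.17) or parental replicate 3 (0.17).

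Of the R-spondin and LGR list, 1 of 6 was tested in clone 37, LGR5, which fell. In clone 15, 2 of 6 were tested, LGR5 and LGR6, and both were called lower. LGR6 was at 0.740 to 1.44 CPM in parental and 0.161 to 0.315 CPM in clone 15. It passed the filter there only through its parental level, so its fall is given as a description. Among extracellular antagonists, 2 rose and 3 fell of 8 tested in clone 37, and 0 rose and 4 fell of 9 tested in clone 15. SFRP2, a secreted Frizzled-related antagonist, was at 6.29, 7.34 and 6.43 CPM in parental, 3.41, 2.88 and 4.72 CPM in clone 15 and 0.822, 1.16 and 0.891 CPM in clone 37. It fell by 2.83 on the log2 scale in clone 37 (SE 0.24, edgeR adjusted p = 2.51e-08) and by 0.92 in clone 15 (SE 0.20, BH-adjusted p = 0.000428), with no overlap between groups. NOTUM, a secreted enzyme that inactivates Wnt ligands and is itself a feedback target, rose in clone 37 from 1.07 ± 0.149 to 4.11 ± 0.252 CPM (1.89, SE 0.25, BH-adjusted p = 6.25e-06) and was at 0.903 ± 0.179 CPM in clone 15, where it was not called (-0.26).

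In the destruction complex, 6 rose and 5 fell of 14 in clone 37, and 6 rose and 1 fell in clone 15. AXIN1, the constitutive relative of AXIN2, rose in clone 37 from 47.2 ± 1.38 to 65.7 ± 4.50 CPM (log2 0.45, SE 0.07, edgeR adjusted p = 3.33e-05), and GSK3B, a kinase of the complex, fell from 140.2 ± 9.41 to 81.9 ± 1.16 CPM (-0.80, SE 0.06, BH-adjusted p = 9.61e-09). Neither was called in clone 15 (-0.09 and -0.13). APC rose in clone 37 (0.29, SE 0.06, BH-adjusted p = 0.000797) and was not called in clone 15 (0.17), except without clone 15 replicate 2 (0.30). APC2 rose in both clones, by 1.58 in clone 37 (SE 0.23, BH-adjusted p = 1.61e-05) and 0.81 in clone 15 (SE 0.25, BH-adjusted p = 0.0087), although counts taken without strand gave 0.07 in clone 15, which was not called.

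Of the 13 nuclear partners, 1 rose and 6 fell in clone 37, and 3 rose and 5 fell in clone 15. TLE4, a Groucho co-repressor, fell from 194.5 ± 2.83 to 63.0 ± 2.67 CPM in clone 37 (log2 -1.65, SE 0.06, edgeR adjusted p = 5.43e-13) and was at 194.3 ± 1.77 CPM in clone 15 (-0.03, not called). TLE2 of the same family fell in clone 15 from 15.9 ± 2.00 to 7.86 ± 1.40 CPM (-1.04, SE 0.14, BH-adjusted p = 1.18e-06), and was at 14.6 ± 0.825 CPM in clone 37, where it was not called (-0.15). Of the other responsive genes, 3 rose and 5 fell of 11 tested in each clone. CCND1, a cell cycle gene often listed as a target, was at 57.1, 62.6 and 57.7 CPM in parental, 22.1, 26.5 and 21.8 CPM in clone 15 and 106.8, 106.0 and 104.8 CPM in clone 37. It rose in clone 37 (0.81, SE 0.06, BH-adjusted p = 7.61e-09) and fell in clone 15 (-1.37, SE 0.10, BH-adjusted p = 2.04e-11).

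**Figure D4:**
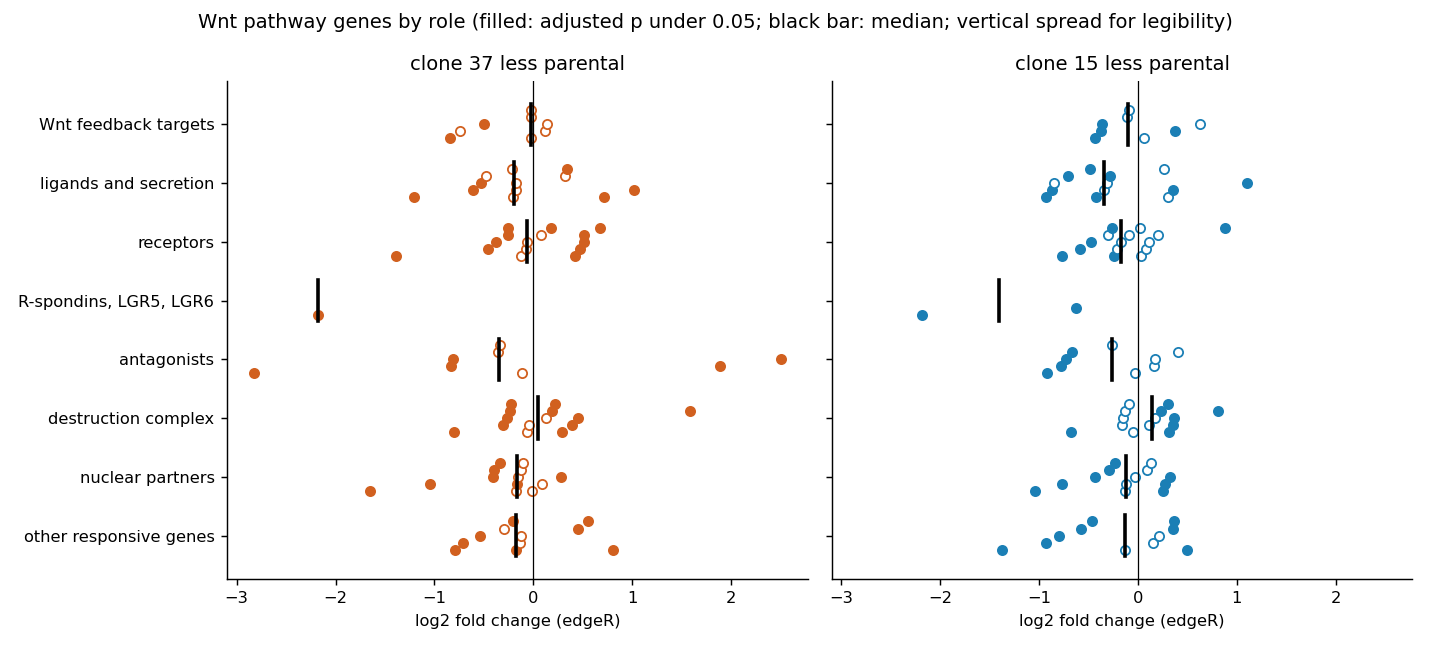
Log2 fold change (x axis) of each tested gene, by role in the pathway (y axis), for clone 37 and clone 15 less parental, with filled points for an adjusted p under 0.05 and a black bar for the median of each list. The medians of the feedback targets are -0.02 and -0.10, and their single values lie between -0.84 and 0.63 over both panels.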

How the data were processed

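Total RNA was depleted of ribosomal RNA, made into directional libraries and sequenced as read pairs, per the labels' protocols. The authors deposited raw counts per gene, and STAR 2.7.10a, FastQC 0.11.9 and hg38 are named in the submitters' processing notes. The annotation release is not given in the sources used here. Column 4, the transcript strand, held 92.6% to 94.0% of stranded counts and was used. The 4 summary entries that name no gene stayed out of totals and tests. Reads mapped to several places were not counted to genes. They made up 4.59% to 5.98% in clone 15 libraries and 10.4% to 14.0% in parental and clone 37 libraries. Positions, neighbours and lengths come from GENCODE 29, which held 58496 of the IDs.

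The deposited counts were filtered with filterByExpr, scaled by TMM and tested with edgeR 4.0.16 (quasi-likelihood, robust) in R 4.3.3, each comparison on its 6 libraries. P-values were adjusted by Benjamini-Hochberg across every gene tested, and a gene was called under 0.05. Alternatives were DESeq2 1.42.0, RLE scaling, other filters, unstranded counts, all 9 libraries, a replicate block and leaving out each library. The fit was tested on simulated counts. The remaining steps used Python 3.11.15 with scipy 1.17.1, pandas 2.3.3 and numpy 2.4.6, and plots used matplotlib 3.10.9.

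The genes and lists were chosen with earlier results of these data known. Genes named beyond the 10 are CTNNB1, CBY1, APC, AXIN1, GSK3B, TCF7L1, TCF7L2, LRP5, LRP6, LGR5, NKD2 and NOTUM for their roles. From each of the 7 other lists, the called gene with the largest absolute change against parental in each clone is also named, where its mean was at least 1 CPM, as are the 5 genes with a mean of at least 1 CPM most like TCIM and AXIN2. Intervals on counts cover counting error only.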

Additional observations from a re-analysis of the deposited data

Results flagged for a closer look

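The 2 clones differed from each other in 5 of the 8 tested feedback targets, by the test of clone 37 against clone 15 itself (edgeR, adjusted p under 0.05), beside 57.7% of all 17712 genes tested, so the count lies near that of all genes. The log2 difference, clone 37 less clone 15, was 0.35 for LEF1, -0.23 for TCF7, 0.55 for NKD1, -0.73 for RNF43 and -1.38 for DKK1. TCF7 was called in this comparison only while clone 37 replicates 1 and 2 were both kept (-0.18 without replicate 1 and -0.19 without replicate 2).

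The same test also separated the clones in 14 of the 21 other pathway genes named by role or by their change against parental. Those named by their change were picked in libraries that this comparison shares, so the count supports nothing about the pathway. The difference was 2.18 for CCND1, 2.15 for NOTUM, 1.13 for NKD2, 0.90 for TLE2, 0.77 for APC2 and 0.54 for AXIN1, all higher in clone 37. It was -1.92 for SFRP2, -1.62 for TLE4, -1.55 for LGR5, -0.80 for ROR2, -0.73 for WNT5A, -0.68 for GSK3B, -0.45 for TCF7L2 and -0.37 for FZD8, all lower in clone 37. SFRP1, named after its values were seen, differed by 2.33. Clone 15 also differs from clone 37 in read length, and these cannot be told apart here.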

How the results depend on the processing

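The counts of genes called stayed within 1.5 times of the values given, under every alternative run. Leaving out 1 library gave 7487 to 10027 genes in clone 37 against parental (8903 with all), 7997 to 9071 in clone 15 against parental (9092) and 9069 to 10454 between the clones (10223). The number of feedback targets called without 1 library was 2 to 3 (2 with all), 4 to 5 (4) and 4 to 6 (5). DKK1 in clone 15 was also called when all 9 libraries were fitted together (0.63). Of 312 values of the 8 tested targets under alternatives, 301 kept their direction and their side of the threshold, 4 gained a call, 2 lost it and 5 changed sign. The sign changes were all of uncalled values near 0 with 1 library left out. In clone 37, AXIN2 ran from -0.14 to 0.04 (0.03 without clone 37 replicate 1 and 0.04 without replicate 3), LEF1 from -0.06 to 0.01 and LGR4 from -0.09 to 0.07 (both highest without clone 37 replicate 2). In clone 15, AXIN2 ran from -0.01 (without parental replicate 1) to 0.12. Among the other named genes, LRP5 in clone 15 ran from -0.05 (without clone 15 replicate 2) to 0.09, with -0.01 and -0.04 without parental replicates 1 and 3, and was -0.04 with unstranded counts. Between the clones, CBY1 ran from -0.04 (without clone 37 replicate 3) to 0.10, with -0.01 without clone 15 replicate 2, and was -0.06 with unstranded counts. APC ran from -0.01 (without clone 15 replicate 2) to 0.18, and LRP5 from -0.00 (without clone 15 replicate 3) to 0.13. The cause was not tested. Against lengths of merged exons, TCF7 no longer stood apart from AXIN2 and NKD1, LEF1 no longer overlapped LGR4, and NKD1 (2.27 CPM per kb) and AXIN2 (2.26 CPM per kb) changed places in parental.

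The replicate numbers were not found to pair libraries: deviations from group means of same-numbered libraries correlated at -0.189 to 0.0451 over 15982 genes, and 1 of the 9 pairs held the highest correlation of its library. A replicate block gave 8375, 8708 and 10490 genes called in the 3 comparisons, and 2, 4 and 5 feedback targets. Among the named genes it changed the call of CTNNB1 alone, lost in clone 15 (-0.23, adjusted p = 0.0728) and gained between the clones (-0.12). RNF43 and DKK1 in clone 37, DKK1 in parental, TCIM in the clones and SP5 throughout rest on few counts, which limits how small a difference could be detected.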
